A study of Homo sapiens with 8 samples.

Results

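The SPARC family is a group of 8 secreted genes (SPOCK1, SPOCK2, SPOCK3, SPARC, SPARCL1, SMOC1, SMOC2 and FSTL1), found here by gene symbol among the 58735 genes of the count table. All 8 were found. They were examined in SW480, a human colorectal adenocarcinoma cell line, of which 4 libraries carried a vector control and 4 overexpressed SPOCK1 with a FLAG tag. SPOCK1 is thus both a member of the family and the gene that was introduced, and the question was which of its relatives these cells express and whether any responded. Cells had been infected with lentivirus and selected with puromycin at 4 μg/ml, per the labels' protocols, until stable overexpression was seen by Western blot. The labels name neither the promoter of the construct nor the number of clones, nor whether separate cultures stand behind the 4 libraries of each group. The p-values then cover no more than the spread between these samples, which may be technical. An effect of SPOCK1 and any other difference between the 2 selected populations cannot be told apart.

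SPARC family proteins are matricellular: they are secreted into the extracellular matrix and tune how cells meet it, rather than building it. SPARC, also called osteonectin, binds collagen and calcium and is typically abundant in fibroblasts, endothelium and bone. All members share a follistatin-like domain, and most carry a calcium-binding EF-hand region. The SPOCK proteins, or testicans, add a thyroglobulin type-1 domain and sites for glycosaminoglycan chains, the SMOC proteins carry thyroglobulin domains and act on BMP signalling, and FSTL1 is a glycoprotein that also acts on BMP signalling.

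In vector controls the family was almost silent, and with the construct the relatives of SPOCK1 were almost silent too. The 7 relatives together had 31 to 38 counts per control library and 26 to 47 per SPOCK1 library, out of totals of 35643585 to 42812951 counts. SPARC had the most and SPOCK2 the next most. FSTL1 and SMOC1 were at the edge of detection, SPARCL1 had 2 counts in a single library, and SMOC2 and SPOCK3 had 0 in all 8. With the construct, SPOCK1 took 99.3% to 99.7% of all counts of the family in each library. Neither SPARC nor SPOCK2, the relatives abundant enough to be tested, passed the test.

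**Figure D1:**
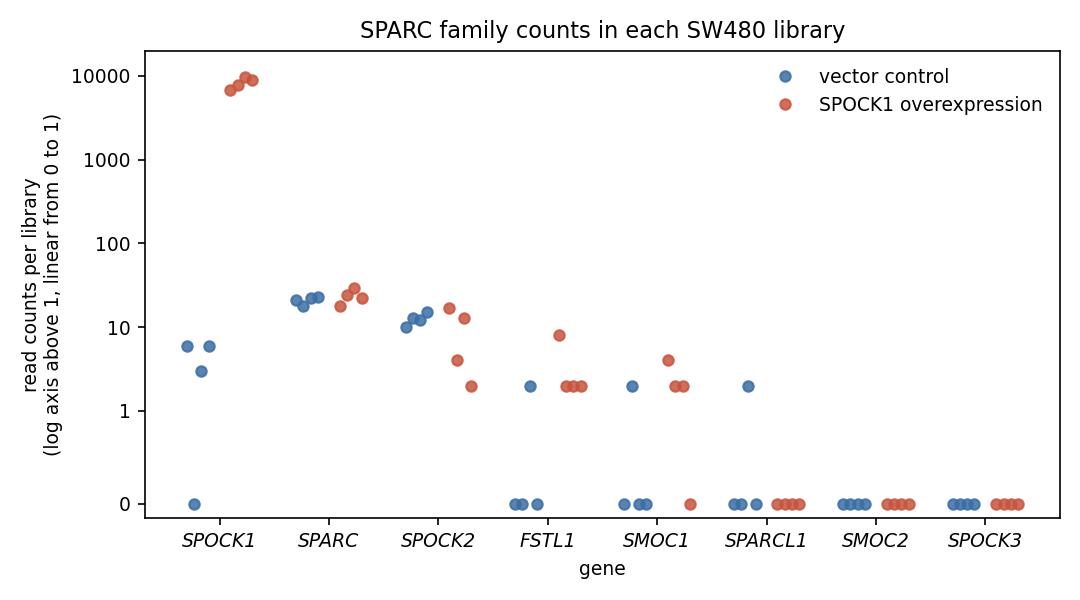
Read counts of the 8 SPARC family genes in each of the 8 libraries, on an axis that is logarithmic above 1 and linear from 0 to 1. Each point is a library, ordered 1 to 4 from left to right within a group. SPOCK1 sits at 0 to 6 counts in controls and 6719 to 9712 with the construct, while SPARC sits at 18 to 29 counts in all libraries and the other relatives at 0 to 17.

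The cell type label was checked against marker genes. The 7 colon epithelial markers summed to 11740 to 14350 CPM (counts scaled to library size, with TMM factors) in controls and 13100 to 14640 CPM with SPOCK1. KRT8 and KRT18 made up most of this. EPCAM had means of 219 CPM in controls and 220 CPM with SPOCK1, CDX2 of 104 and 93.2 CPM, and VIL1 of 78.1 and 64.9 CPM. KRT20 and CDH17 had 19 or fewer counts over all 8 libraries. The 8 fibroblast markers summed to 1.16 to 2.29 CPM in controls and 1.06 to 1.83 CPM with SPOCK1, with DCN and LUM at 0 in every library. The 5 endothelial markers summed to 0.593 to 1.38 and 0.913 to 1.39 CPM, with CDH5 and KDR at 0, and the 5 leukocyte markers to 0.244 to 0.620 and 0.428 to 0.627 CPM.

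Since most members had few reads, the way low counts were distributed bears on their precision. Over all genes and libraries, a count of 2 was 1.60 times as frequent as a count of 1 (13063 against 8165 values), and 62.0% of the 47943 values from 1 to 10 were even. The excess of even values was present in all 8 libraries, with 60.6% to 63.4% even. FSTL1, SMOC1 and SPARCL1 had even counts in every library where they had any. Reads counted independently of each other would not favour even values, so intervals that treat each count as a separate draw may be too narrow. Intervals are therefore given both on the counts as deposited and on counts divided by 2 and rounded up, a step added after seeing the data. All such intervals cover counting error only.

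**Figure D2:**
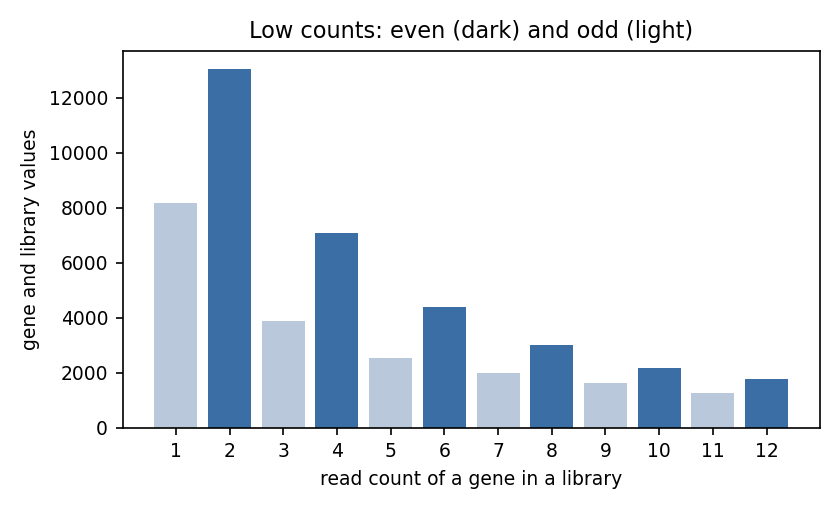
Number of gene and library values (vertical axis) at each read count from 1 to 12 (horizontal axis), over all 58735 genes and 8 libraries. Every even count (dark bars) is more frequent than the odd count just below it (light bars), with 13063 values equal to 2 and 8165 equal to 1.

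SPOCK1 (ENSG00000152377, chromosome 5, 136975298 to 137598379, minus strand), a testican known chiefly from brain and testis, was counted 6, 0, 3 and 6 times in controls 1 to 4. With the construct it was counted 6719, 7828, 9712 and 8964 times in libraries 1 to 4, or at 180, 223, 225 and 256 CPM. The groups did not overlap, and every overexpressing library lay far above every control. Library 1 had the lowest level with the construct and library 4 the highest, with a coefficient of variation of 14.1%. The ratio of pooled levels was 2253, with an exact 95% interval of 1366 to 4026 on counts as deposited, and 2112, with 1072 to 4894, on counts divided by 2. On the log2 scale the edgeR quasi-likelihood test put the difference at 11.09 ± 0.23 (SE, adjusted p = 2.97e-15). This difference is the manipulation itself and checks the labels. The empty control, library 2, allows a level of up to 0.081 CPM, reading 0 as up to 3 counts as deposited.

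Levels of different genes were compared only per length, as RPKM (CPM per kilobase of the gene length deposited beside the counts). SPOCK1 moved from 0.0154 ± 0.0116 RPKM in controls to 35.5 ± 5.00 RPKM with the construct (SD, n = 4 each). Among 19951 protein-coding genes, of which 16220 had any count, this was rank 14354 in controls and rank 1341 with the construct. Reads of the construct and of the chromosomal gene were counted together. If the construct holds only part of the gene's exonic length, its true density is higher than this RPKM, and the extent of the construct is not given in the sources used here.

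**Figure D3:**
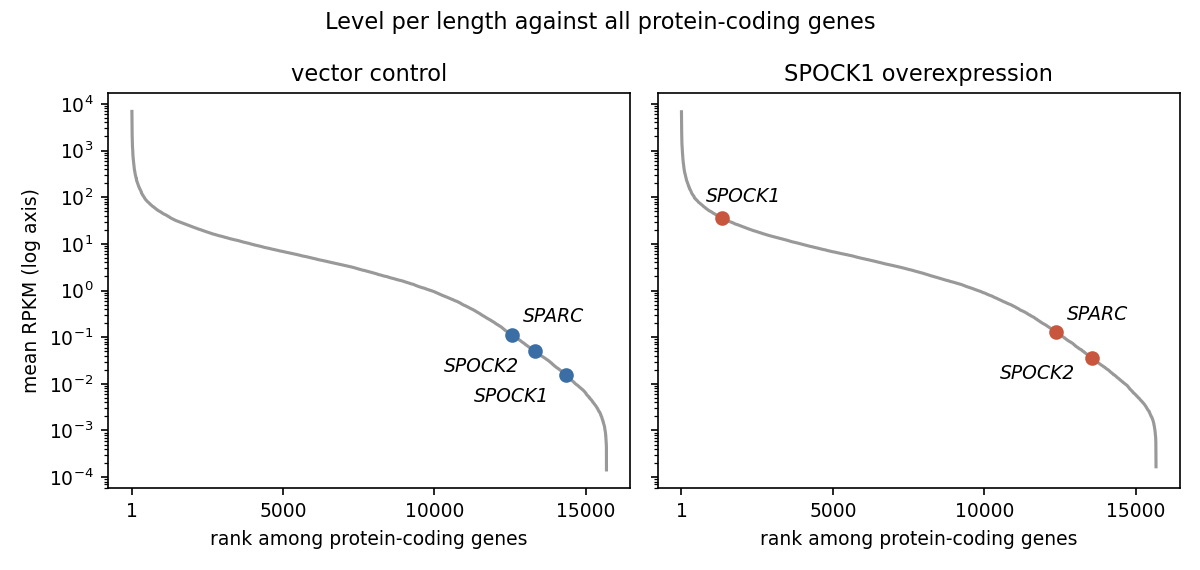
Mean RPKM (log axis) of protein-coding genes with at least 1 count in the group against their rank, in controls (left) and with SPOCK1 (right). Points mark SPOCK1, SPARC and SPOCK2: SPOCK1 moves from rank 14354 to rank 1341, while SPARC (12571 and 12376) and SPOCK2 (13335 and 13551) stay in the low tail.

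Promoter sequences are shown for 3 of the relatives. SPARC had the most counts, and FSTL1 had the largest ratio between the groups among relatives counted in both. SPARCL1, with 2 counts, had the fewest among relatives with any count, while SMOC2 and SPOCK3 had 0. Each is the RefSeq window of 250 bases before to 50 bases after the start that RefSeq gives the gene (GRCh38.p14), read 5′ to 3′ on the minus strand on which all 3 genes lie, with every CG dinucleotide in capitals. SPARC lies at chr5:151686866-151687165, FSTL1 at chr3:120450943-120451242 and SPARCL1 at chr4:87529327-87529626. The RefSeq starts lie 250, 261 and 1685 bases inside the starts of SPARC, FSTL1 and SPARCL1 in the deposited table, which are the gene coordinates printed below.
SPARC: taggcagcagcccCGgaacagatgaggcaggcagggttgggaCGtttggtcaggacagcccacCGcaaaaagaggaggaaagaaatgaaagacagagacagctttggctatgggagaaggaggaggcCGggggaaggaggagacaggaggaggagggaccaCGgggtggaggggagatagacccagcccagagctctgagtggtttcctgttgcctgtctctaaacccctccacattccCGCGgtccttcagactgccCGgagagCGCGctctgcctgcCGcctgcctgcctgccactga
FSTL1: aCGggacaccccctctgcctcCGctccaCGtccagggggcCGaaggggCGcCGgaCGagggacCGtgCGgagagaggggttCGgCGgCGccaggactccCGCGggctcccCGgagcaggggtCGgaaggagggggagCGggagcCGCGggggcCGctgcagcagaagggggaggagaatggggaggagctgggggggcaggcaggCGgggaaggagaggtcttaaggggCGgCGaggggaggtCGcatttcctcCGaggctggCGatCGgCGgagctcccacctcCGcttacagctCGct
SPARCL1: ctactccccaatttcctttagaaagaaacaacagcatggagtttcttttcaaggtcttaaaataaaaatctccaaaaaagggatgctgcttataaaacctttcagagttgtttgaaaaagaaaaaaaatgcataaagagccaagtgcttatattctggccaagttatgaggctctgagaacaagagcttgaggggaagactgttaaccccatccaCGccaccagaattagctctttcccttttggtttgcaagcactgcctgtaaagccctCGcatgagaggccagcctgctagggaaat

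CG, which reads the same on both strands, is the dinucleotide at which DNA is methylated in vertebrates. The windows held 11 CG in SPARC, 30 in FSTL1 and 2 in SPARCL1, against a median of 14 over 35116 RefSeq windows of the same length, 96.0% of which held at least 1. Of the other members, SMOC2 had 28 CG, SMOC1 24, SPOCK3 13 to 23 in its 3 windows and SPOCK2 8 and 13 in its 2 windows. The RefSeq start of SMOC1 lies 25285 bases inside the start of the gene in the deposited table. The order of CG counts did not follow the order of RNA levels: SMOC2 and SPOCK3, with no reads, had more CG than SPARC. No methylation or binding was measured in these libraries.

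SPARC (ENSG00000113140, chromosome 5, 151661096 to 151687165, minus strand) was counted 21, 18, 22 and 23 times in controls 1 to 4, and 18, 24, 29 and 22 times in SPOCK1 libraries 1 to 4. In CPM these were 0.549, 0.486, 0.593 and 0.561 against 0.482, 0.684, 0.670 and 0.627. SPOCK1 libraries 2, 3 and 4 lay above all controls and SPOCK1 library 1 below all of them, so the groups overlapped. The log2 fold change was 0.17 ± 0.34 (SE, adjusted p = 0.871, edgeR quasi-likelihood test). Its 95% interval runs from 0.686-fold to 1.84-fold, so changes within that range in either direction are not excluded. SPARC overlaps CLMAT3, an antisense gene that had 0 counts.

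SPARC nonetheless had the highest level of the 7 relatives per length, at 0.113 ± 0.00926 RPKM in controls and 0.127 ± 0.0192 RPKM with SPOCK1 (SD, n = 4 each). This is rank 12571 of the protein-coding genes in controls. From the fibroblast markers, COL1A1, the collagen that SPARC accompanies in fibroblasts, had 0.769 CPM in controls and 0.625 CPM with SPOCK1 (log2 fold change -0.30, adjusted p = 0.762, edgeR). PDGFRB, the other fibroblast marker tested, had 0.758 and 0.856 CPM (log2 fold change 0.18, adjusted p = 0.888, edgeR). These CPM values are not per length and are not set against the level of SPARC.

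SPOCK2 (ENSG00000107742, chromosome 10, 72059035 to 72089032, minus strand), which encodes testican-2, a proteoglycan with the same domains as SPOCK1, was counted 10, 13, 12 and 15 times in controls 1 to 4. In SPOCK1 libraries 1 to 4 it was counted 17, 4, 13 and 2 times, or at 0.455, 0.114, 0.300 and 0.057 CPM, against 0.261 to 0.366 CPM in controls. SPOCK1 library 1 lay above every control, libraries 2 and 4 lay below every control, and library 3 lay among them. The spread was accordingly wider with SPOCK1, with a coefficient of variation of 78.4% against 14.2% in controls. The log2 fold change over all libraries was -0.46 ± 0.54 (SE, adjusted p = 0.754, edgeR quasi-likelihood test), with a 95% interval from 0.327-fold to 1.60-fold.

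The SPOCK2 value depended on which libraries were compared. Libraries 1 and 3 of both groups differed from libraries 2 and 4 in how counts followed GC content, a split known from earlier results of these data. The mean log2 deviation of the 20% of genes with the highest GC content, minus that of the 20% with the lowest, lay between -0.27 and -0.13 in libraries 1 and 3 and between 0.026 and 0.26 in libraries 2 and 4. The SPOCK2 transcript has a GC content of 58.3%, the highest of the 8 members. In controls SPOCK2 was lower in libraries 1 and 3 (0.26 and 0.32 CPM) than in libraries 2 and 4 (0.35 and 0.37 CPM). With SPOCK1 it was higher in libraries 1 and 3 (0.45 and 0.30 CPM) than in libraries 2 and 4 (0.11 and 0.057 CPM). The part of GC content in the SPOCK2 result was not tested beyond the offsets given here. Within libraries 1 and 3 SPOCK2 differed by 0.36 ± 0.66 on the log2 scale (SE, adjusted p = 0.852), and within libraries 2 and 4 by -2.03 ± 0.90 (SE, adjusted p = 0.407, edgeR quasi-likelihood test with 2 libraries per group). The difference between these values was not tested. With offsets for GC content and length in each library the log2 fold change over all 8 was -0.31 ± 0.56 (SE, adjusted p = 0.819). Leaving out SPOCK1 library 4 gave -0.16 and leaving out SPOCK1 library 1 gave -0.99, neither called.

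SPOCK1, SPARC and SPOCK2 were the 3 members that passed the filter on low counts. SPOCK1 passed it only through the overexpressing libraries, and its call is the manipulation, not a response. Of the 2 relatives tested 0 were called, against 1.04% of all 15790 genes tested (0.247% higher with SPOCK1 and 0.798% lower). Among the 2605 tested genes with a mean under 1 CPM, where SPARC and SPOCK2 lie, 1 was called, and the log2 fold changes had a median standard error of 0.43, against 0.12 among genes with a mean of at least 1 CPM. SPARC and SPOCK2 had unadjusted p-values of 0.622 and 0.404 in edgeR, and none of the other fits run called either of them, DESeq2 and limma-voom included. DESeq2 gave SPOCK2 no adjusted p. No relative reached a mean of 1 CPM, the level set for naming genes with a similar pattern across libraries, so none are named.

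FSTL1 (ENSG00000163430, chromosome 3, 120392293 to 120451253, minus strand) was counted 0, 0, 2 and 0 times in controls 1 to 4, and 8, 2, 2 and 2 times in SPOCK1 libraries 1 to 4. It was thus seen in 1 of 4 controls and in 4 of 4 SPOCK1 libraries, and 8 of its 16 counts came from SPOCK1 library 1. The groups overlapped in CPM, with control library 3 (0.0539 CPM) above SPOCK1 library 3 (0.0462 CPM). The mean was 0.0135 ± 0.0270 CPM in controls and 0.0936 ± 0.0805 CPM with SPOCK1 (SD, n = 4 each). The exact two-sided permutation test gave p = 0.0571, and 0.114 adjusted over the 2 members tested in this way, where 0.0286 is the smallest p the design can give. The ratio of pooled levels was 7.12, with an exact 95% interval of 1.64 to 64.6 on counts as deposited and of 0.915 to 321 on counts divided by 2. With 1 library left out the unadjusted exact permutation p lay between 0.0286, without SPOCK1 library 3 (0.0571 adjusted over the 2 members), and 0.229. Without a filter beyond 1 count, edgeR gave FSTL1 an adjusted p of 0.548. FSTL1 overlaps AC063952.1 on the opposite strand, which had 1 count in controls and 5 with SPOCK1, and with the strand setting unknown their reads cannot be fully told apart. It also hosts MIR198, which had 0 counts.

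SMOC1 (ENSG00000198732, chromosome 14, 69854131 to 70032366, plus strand), a modulator of BMP signalling, was counted 0, 2, 0 and 0 times in controls 1 to 4, and 4, 2, 2 and 0 times in SPOCK1 libraries 1 to 4. The groups overlapped (exact two-sided permutation p = 0.257, and 0.257 adjusted over the 2 members). The ratio of pooled levels was 4.07, with an exact 95% interval of 0.812 to 39.3 on counts as deposited and of 0.403 to 200 on counts divided by 2. RPL7AP6, a ribosomal protein pseudogene on the opposite strand within the span of SMOC1, had 11410 counts over the 8 libraries, and whether any of its reads were counted for SMOC1 was not tested.

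The other 3 members were at or under the limit of detection. SPARCL1 (ENSG00000152583, chromosome 4, 87473335 to 87531061, minus strand), also called hevin and typical of endothelium and brain, had 2 counts in control library 3 and 0 in every other library. SMOC2 (ENSG00000112562, chromosome 6, 168441151 to 168673445, plus strand), a marker of intestinal stem cells, had 0 counts in all 8 libraries, as did SPOCK3 (ENSG00000196104, chromosome 4, 166733384 to 167234796, minus strand), a testican of the nervous system. A count of 0 pooled over a group allows up to 0.0196 CPM in controls and 0.0199 CPM with SPOCK1, reading 0 as up to 3 counts.

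In controls the members ranked by mean RPKM as SPARC (0.113), SPOCK2 (0.0495), SPOCK1 (0.0154), SPARCL1 (0.0039), SMOC1 (0.0031) and FSTL1 (0.0015), with SMOC2 and SPOCK3 at 0. The ranges of SPARC and SPOCK2 over the 4 controls did not overlap, nor did those of SPOCK2 and SPOCK1. All later neighbours overlapped, so their order is not resolved. With the construct SPOCK1 came first (35.5), ahead of SPARC (0.127) and SPOCK2 (0.0353), followed by SMOC1 (0.0120) and FSTL1 (0.0107).

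The low level of the family was not shared by all genes of the same kind. Among 33 other matricellular genes, 15 had a higher mean RPKM in controls than SPARC. TGFBI, a collagen-binding protein induced by TGF-β, was the highest at 36.9 RPKM, and CYR61 (CCN1), an integrin ligand, had 11.8 RPKM. POSTN, EDIL3, HMCN1, IBSP, TNN and TNR had 0 counts. Of the 16 matricellular genes tested, 0 were called by edgeR, DESeq2 or limma-voom, with 3 at an unadjusted p under 0.05 in edgeR, a threshold that 13.65% of all genes tested passed. The median log2 fold change was -0.08, against -0.0042 over all genes tested. TGFBI had 288 ± 16.3 CPM in controls and 317 ± 38.5 CPM with SPOCK1 (SD, n = 4 each, adjusted p = 0.504). CYR61 and MFGE8, a phosphatidylserine-binding milk fat globule protein, had log2 fold changes of 0.05 ± 0.10 and -0.09 ± 0.09 (SE, adjusted p = 0.873 and 0.701, edgeR).

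Genes that share the follistatin or Kazal domain with the family were led by AGRN, the proteoglycan agrin, at 57.8 RPKM in controls and 57.5 RPKM with SPOCK1. Most of this list was low: 8 of the 23 genes had a higher mean RPKM in controls than SPARC, and the median was 0.0064 RPKM. No counts at all were found for 8 of them. Of the 23 genes 8 were tested, and 0 were called by edgeR or limma-voom and 1 by DESeq2. In edgeR 2 had an unadjusted p under 0.05, against 13.65% of all genes tested, and the median log2 fold change was -0.14. KAZALD1, a secreted Kazal domain protein, had 79.8, 89.6, 83.6 and 88.7 CPM in controls 1 to 4 and 67.9, 65.0, 61.0 and 73.9 CPM in SPOCK1 libraries 1 to 4. Every SPOCK1 library lay below every control, as was the case for 2 of the 8 genes tested here and for groups that did not overlap in either direction in 8.23% of all genes. The edgeR estimate was -0.35 ± 0.08 on the log2 scale (SE, adjusted p = 0.0524), just outside the threshold. DESeq2 gave an adjusted p of 0.00958 and limma-voom 0.0516. With 1 library left out the edgeR adjusted p lay between 0.0238 and 0.193, and KAZALD1 was not called in 7 of these fits. IGFBP7, an insulin-like growth factor binding protein, stood at -0.22 ± 0.09 on the log2 scale (SE, adjusted p = 0.271, edgeR). AGRN stood at -0.01 ± 0.11 (adjusted p = 0.981), and at 0.20 with offsets for GC content and length, where it was called upward (adjusted p = 0.0332, edgeR). With a block for replicate number added to the offsets it stood at 0.20 and was not called (adjusted p = 0.0796, edgeR).

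Thyroglobulin type-1 domain genes, which share that domain with the testicans and SMOCs, were well expressed, with 9 of 12 above SPARC per length. IGFBP4, an insulin-like growth factor binding protein, was the highest at 203 RPKM in controls. Of 9 tested, 0 were called by edgeR, DESeq2 or limma-voom, and the median log2 fold change was -0.10. In edgeR 1 of the 9 had an unadjusted p under 0.05, against 13.65% of all genes tested. IGFBP4, EPCAM, an epithelial adhesion molecule, and IGFBP2 had log2 fold changes of -0.04 ± 0.08, 0.01 ± 0.10 and -0.13 ± 0.08 (SE, adjusted p = 0.872, 0.981 and 0.533, edgeR).

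Proteases, inhibitors and receptors that SPARC family proteins are known to meet were present at many levels. CTSL, the cathepsin that testican-1 inhibits, had 16.0 RPKM in controls and 15.6 RPKM with SPOCK1. MMP14, a membrane-bound metalloprotease, had 13.9 and 13.1 RPKM, and MMP16, a related membrane-bound metalloprotease, had 0 counts. These and the following gene were chosen after their values were seen. MMP2, a gelatinase, had 1.42 CPM in controls and 2.25 CPM with SPOCK1 (log2 fold change 0.66 ± 0.25, SE, adjusted p = 0.272, edgeR). Of 21 tested genes 0 were called by edgeR, DESeq2 or limma-voom, and the median log2 fold change was -0.05. In edgeR 3 of the 21 had an unadjusted p under 0.05, against 13.65% of all genes tested. The list's 3 genes with the highest mean CPM, a measure that also grows with gene length, were CTSB, a lysosomal cysteine protease, ITGB5, an integrin subunit, and DDR1, a collagen receptor, at log2 fold changes of 0.14 ± 0.07, -0.02 ± 0.08 and -0.15 ± 0.09 (SE, adjusted p = 0.430, 0.929 and 0.494, edgeR).

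**Figure D4:**
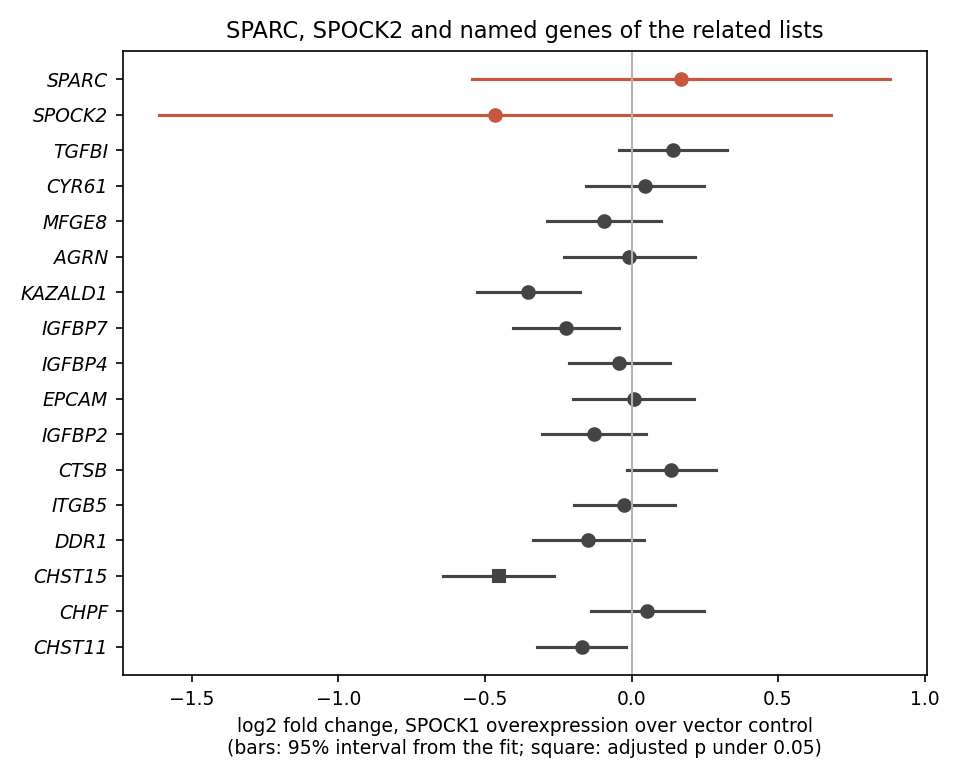
Log2 fold change of SPOCK1 overexpression over vector control (horizontal axis) with its 95% interval from the edgeR fit (bars) for SPARC and SPOCK2 (top) and the named genes of the related lists. The square marks CHST15, the gene with an adjusted p under 0.05; the intervals of SPARC and SPOCK2 are the widest and both contain 0.

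Enzymes that build and sulfate glycosaminoglycan chains, which testicans carry, were mostly expressed: 41 of 50 were tested and 39 had a higher RPKM in controls than SPARC. Of the 41, 1 fell, 0 rose and 40 did not pass, a share of falls of 2.44% against 0.798% of all genes, and the median log2 fold change was -0.04. At an unadjusted p under 0.05 in edgeR there were 8 of the 41, against 13.65% of all genes tested. The fall was CHST15, a sulfotransferase that adds a second sulfate to chondroitin sulfate. It had 35.7, 34.0, 36.9 and 35.0 CPM in controls 1 to 4 and 23.4, 26.5, 25.8 and 27.7 CPM in SPOCK1 libraries 1 to 4, without overlap. The groups did not overlap, in either direction, in 5 of the 41 genes and in 8.23% of all genes tested. CHST15 fell by 27.0% (log2 fold change -0.45 ± 0.09, SE, adjusted p = 0.0174, edgeR quasi-likelihood test). It was no longer called when control library 3, SPOCK1 library 2 or SPOCK1 library 3 was left out (log2 fold changes -0.43, -0.47 and -0.45, adjusted p = 0.0611, 0.0636 and 0.0686). Nor was it called at 2 libraries per group within libraries 1 and 3 (-0.56) or within libraries 2 and 4 (-0.35). CHPF, a chondroitin polymerizing factor, and CHST11, a chondroitin sulfotransferase, had log2 fold changes of 0.05 ± 0.09 and -0.17 ± 0.07 (SE, adjusted p = 0.840 and 0.318, edgeR). XYLT2, the xylosyltransferase that starts the chains, named after its values were seen, had 5.84 RPKM in controls and 5.23 RPKM with SPOCK1, while XYLT1, its paralog, had 0.0167 and 0.0141 RPKM.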

How the data were processed

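Raw gene-level counts were used as deposited, in 8 libraries of 35643585 to 42812951 counts. The submitters' processing notes name the tools CASAVA, HISAT2 2.0.5 and featureCounts 1.5.0-p3. How read pairs, strand and reads matching several genes were handled, and on which genome build, is not given in the sources used here. Start, end and strand of all 58735 genes were identical to GENCODE release 29 (GRCh38).

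edgeR 4.0.16 in R 4.3.3 compared the groups without covariates: filterByExpr (minimum count 10, minimum total 15), TMM factors, glmQLFit and glmQLFTest, with Benjamini-Hochberg adjustment over 15790 genes and a threshold of 0.05. Standard errors follow from the F statistic and 95% intervals from the test's degrees of freedom. Members under the filter with at least 10 counts had an exact permutation test of CPM. Sequences are from RefSeq windows, which matched 7 of the 8 members by symbol.

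Of 182 symbols in the gene lists and markers, 176 matched the deposited symbols and 6 matched by way of a name table. The members and lists were chosen with earlier results of these data known. The naming rule took all 8 members and, from each list, every called gene, filled up to 3 by mean CPM. Alternatives were DESeq2 1.42.0, limma-voom (limma 3.58.1), upper-quartile and RLE factors, other filters, a replicate block, GC content and length offsets (splines of 5 degrees of freedom), library sizes without SPOCK1, subsets of libraries and, added after seeing the data, counts divided by 2 and rounded up.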

Additional observations from a re-analysis of the deposited data

Results flagged for a closer look

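In 6 of the 41 groups of 4 libraries examined for the members and named genes, a single library lay far from the other 3. Chance flags about 1 in 20 groups of continuous values, a rate that does not hold for groups with counts in a single library, as in 3 of the 6. FSTL1 in SPOCK1 library 1 stood at 0.214 CPM (8 counts), against 0.0462 to 0.0570 CPM in the other SPOCK1 libraries. A further 3 cases were single control libraries with 2 counts beside 3 libraries at 0: FSTL1 in control library 3 (0.0539 CPM), SPARCL1 in control library 3 (0.0539 CPM) and SMOC1 in control library 2 (0.0540 CPM). Control library 3 also had less TGFBI than the other controls, at 264 CPM against 294 to 299 CPM, and more EPCAM, at 252 CPM against 204 to 210 CPM.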

How the results depend on the processing

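SPARC had a positive log2 fold change in all 21 fits that tested it, with adjusted p from 0.856 to 0.993, and SPOCK2 had adjusted p from 0.407 to 0.914 in the 19 fits that gave one. SPOCK1 was the only family member called in each fit. Over all genes, 165 were called as reported, with 23.6% of them rises. The count was 398 with DESeq2 (28.4% rises), 399 without a filter beyond 1 count, 691 with GC content and length offsets (54.3% rises), 317 with these offsets and the replicate block (46.1% rises), 8 within libraries 1 and 3 and 140 within libraries 2 and 4, and the cause was not tested. It was 89 to 237 with 1 library left out: 96 without control library 2, 90 and 89 without SPOCK1 libraries 2 and 3.

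The labels share replicate numbers between the groups. Same-numbered libraries had correlations of -0.159, 0.0902, 0.113 and 0.176 in their deviations from the group means, and control library 4 alone correlated best with its own number. These deviations also hold the GC content difference between libraries 1 and 3 and libraries 2 and 4. They therefore do not decide whether the numbers pair libraries. With the replicate block 115 genes were called over all, and SPOCK1, SPARC and SPOCK2 had log2 fold changes of 11.10, 0.16 and -0.64, with no change of call.

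Called members of the matricellular list went from 0 to 1 with GC content and length offsets. In the follistatin or Kazal list 0 became 1 with DESeq2, without a filter beyond 1 count, with a mean of at least 1 CPM, with offsets and block, within libraries 2 and 4, and on counts divided by 2, and 3 with offsets alone. Leaving out 1 library gave 0 to 1 in that list and in the protease and receptor list, and 0 to 1 in the glycosaminoglycan list, which had 4 with offsets and 0 within either pair of library numbers. AGRN, near 0 as reported, took either sign in other fits, such as -0.16 within libraries 1 and 3 and 0.12 within libraries 2 and 4. It was called with GC content and length offsets alone, at 0.20. The cause of these differences was not tested. On the length of the longest transcript, SPARC in controls had 0.148 RPKM, SPOCK2 0.0598 RPKM and SPOCK1 with the construct 45.6 RPKM, as a shorter length must give. The FSTL1 difference lay between 0.0400 and 0.0959 CPM with 1 library left out. Without SPOCK1 library 3 its exact permutation p was 0.0286 unadjusted, the smallest possible there, and 0.0571 adjusted over the 2 members. SMOC1 had an exact permutation p of 0.0857 or more with any 1 library left out. FSTL1 could therefore not pass the threshold after adjustment in these settings, whatever its counts.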
